A study of Bos taurus with 6 samples.

Results

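The bovine miR-21 precursor gives a pair of mature miRNAs, bta-miR-21-5p and bta-miR-21-3p, which were followed in extracellular vesicles (EVs) released by cultured bovine granulosa cells. The members were the miRNA identifiers that equalled either name, 2 of the 512 miRNAs listed in every library. The cells were primary granulosa cells from small antral follicles of slaughterhouse ovaries, first cultured at 37 °C in medium with exosome-depleted bovine serum. For the next 24 h the control-EVs group stayed at 37 °C and the heat-stressed (HS) group, HS-EVs, was held at 42 °C, with 3 EV libraries in each. The libraries are described as biological replicates, without naming the animals or the number of ovaries behind each one. EVs were precipitated from spent medium, so serum RNA that survived the depletion could be present in both groups.

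A miRNA precursor is a hairpin cut into a short duplex. One strand, the guide, is loaded into an Argonaute protein and directs the repression of matching mRNAs, while the other strand, the passenger, is mostly degraded. In miR-21 the 5p arm is the guide and the 3p arm the passenger. The guide represses inhibitors of growth and survival such as PDCD4. In granulosa cells, the hormone-producing cells around the oocyte, miR-21 is known as an anti-apoptotic miRNA that the luteinizing hormone surge induces. In RefSeq's annotation of the assembly ARS-UCD2.0 the identifiers matched 1 gene, MIR21, on chromosome 19. Its nearest neighbour there is VMP1, a gene of autophagy. The files were made on another assembly, UMD3.1, so that no positions are given.

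The deposited values were normalized read counts, and each library's smallest value above 0 was taken as 1 read. The recovered reads numbered 274434 to 587850 in control-EVs and 506670 to 2360980 in HS-EVs. In every library these totals were higher than the miRNA-mapped reads that the study lists for it, and the reason was not tested. In all but control-EVs replicate 2, bta-miR-1246 alone had more recovered reads than the listed total. Reads on the other miRNAs stayed below that total in every library. Shares that include bta-miR-1246, and scaling by all reads, rest on these counts. Where the same molecule was counted more than once, the counting intervals given here are too narrow. A single miRNA, bta-miR-1246, took 59.9% to 84.6% of the recovered reads in control-EVs and 75.6% to 98.6% in HS-EVs. The miR-21 arms therefore shared 73569 to 235634 reads with the other miRNAs in control-EVs, and 34141 to 123448 in HS-EVs. HS-EVs replicate 1 stood apart, with the most reads in all and the fewest left for miRNAs other than bta-miR-1246. Of the gonad-linked markers, bta-miR-202 had 508 to 2818 reads and bta-miR-224 had 19 to 148 in the 6 libraries, whereas bta-miR-383 was at 0 in 4 libraries and had 1 read in the other two.

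bta-miR-21-5p was among the 9 most abundant miRNAs of every library. In control-EVs it had 3576, 13434 and 7353 reads in replicates 1, 2 and 3, which placed it at ranks 8, 7 and 3, where rank 1 is the miRNA with the most reads. In HS-EVs it had 1533, 12415 and 8186 reads and held ranks 9, 2 and 3. Ranks of 7 to 9 were those of both replicate 1 libraries and of control-EVs replicate 2. The mean rank of the controls, 6 ± 2.65 (SD, n = 3), and that of the heat-stressed group, 4.67 ± 3.79 (SD, n = 3), differed by less than the SD of either group (two-sided exact permutation, p = 0.9). With 3 libraries in each group no such p can fall below 0.1.

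When bta-miR-1246 was left out of the total, the share of bta-miR-21-5p was 4.67% in control-EVs replicate 1 (95% Wilson interval from 4.52% to 4.82%). It was 5.70% in replicate 2, with an interval from 5.61% to 5.80%, and 9.99% in replicate 3, with one from 9.78% to 10.2%. The HS library of replicate 1 had a share of 4.49% (from 4.28% to 4.72%), that of replicate 2 had 10.1% (from 9.89% to 10.2%) and that of replicate 3 had 9.44% (from 9.25% to 9.64%). Only counting error enters these intervals, and the libraries of one group lay much farther apart than their intervals. The lowest share of each group was found in replicate 1, and the groups overlapped over nearly their whole range. The control mean was 6.79% ± 2.83 (SD, n = 3), against 8.0% ± 3.05 (SD, n = 3) after heat stress (two-sided exact permutation, p = 0.9). Without HS-EVs replicate 1 the HS mean exceeded the control mean by 2.96 percentage points, and the mean rank differed by -3.5. Other libraries moved these differences the other way: without control-EVs replicate 1 the means lay 0.148 percentage points apart, and without HS-EVs replicate 2 the mean ranks differed by 0. Of all reads, bta-miR-1246 included, bta-miR-21-5p took 0.718%, 2.29% and 2.68% in control-EVs and 0.0649%, 2.45% and 1.47% in HS-EVs, for replicates 1 to 3. On this scale the mean of HS-EVs, 1.33% ± 1.20 (SD, n = 3), was the lower one, against 1.89% ± 1.04 (SD, n = 3) for the controls (two-sided exact permutation, p = 0.6). The low value of 0.0649% belongs to the library in which bta-miR-1246 took 98.6% of the reads. There bta-miR-1246 alone exceeded the miRNA-mapped total that the study lists.

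**Figure D1:**
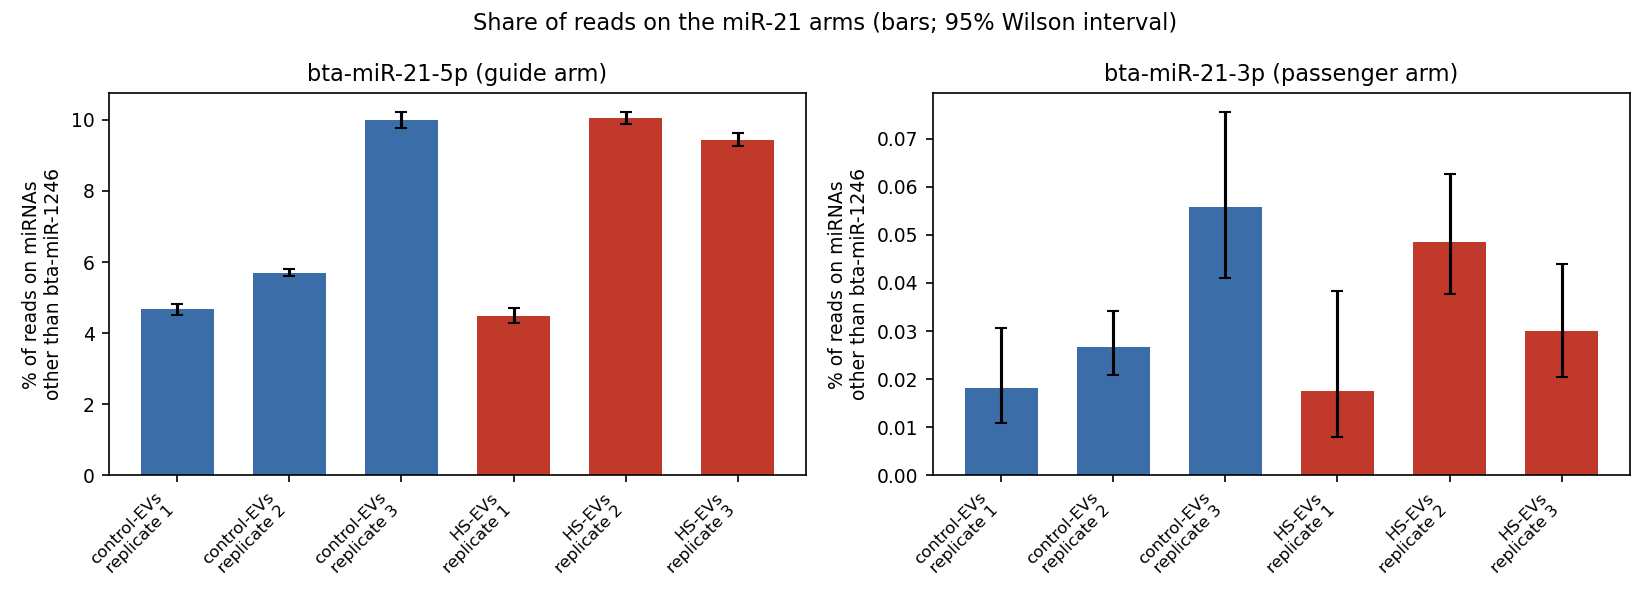
Share of bta-miR-21-5p (left) and bta-miR-21-3p (right) among all miRNA reads except those of bta-miR-1246, in percent, for each control-EVs (blue) and HS-EVs (red) library. Error bars are 95% Wilson intervals. The 5p arm lies between 4.49% and 10.1% and the 3p arm between 0.0176% and 0.0557%, and the groups overlap in both.

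On the scale of normalized read counts, bta-miR-21-5p stood at 6564, 9368 and 14529 in the control libraries and at 6299, 13656 and 13342 in the HS libraries, again in the order of their numbers. The highest library was a control and the lowest an HS library. The control mean of 10154 ± 4040 (SD, n = 3) and the HS mean of 11099 ± 4160 (SD, n = 3) were closer than the SD of either group. In limma's test of log2(normalized read count + 1) over all 512 miRNAs, the log2 fold change of the guide in HS-EVs against control-EVs was 0.12, with a standard error of 0.52 and an adjusted p of 0.958. The 95% interval of that log2 difference ran from -1.04 to 1.28, from 0.486-fold to 2.43-fold, and the data leave changes within this range possible.

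The passenger arm, bta-miR-21-3p, was found in all 6 libraries at far lower levels. It had 14, 63 and 41 reads in control-EVs and 6, 60 and 26 reads in HS-EVs, for replicates 1 to 3. All of these lie above a floor of 3 reads, with HS-EVs replicate 1 nearest to it. Its ranks were 151.5, 122 and 97 in control-EVs and 149.5, 112.5 and 137 in HS-EVs, ties sharing a mean rank, among 294 to 409 miRNAs with at least 1 read. Normalized read counts of the 3p arm were 25.7, 43.9 and 81.0 in control-EVs and 24.7, 66.0 and 42.4 in HS-EVs. As for the guide, the replicate 1 libraries were the lowest of their groups and control-EVs replicate 3 was the highest of all. The control mean was 50.2 ± 28.2 (SD, n = 3), against 44.3 ± 20.7 (SD, n = 3) after heat stress. In limma its log2 fold change was -0.13, with a standard error of 0.57, a 95% interval of -1.41 to 1.14 and an adjusted p of 0.958.

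The threshold of the study asks for an adjusted p of at most 0.3 and a log2 fold change of at least 1 in either direction. In limma 0 of the 2 arms passed it, as did 0 (0%) of the 512 miRNAs. The study, which tested with edgeR, names several miRNAs as enriched in HS-EVs at its threshold, with neither miR-21 arm among them. At an unadjusted p-value of 0.05 it called 25 miRNAs (4.88%), none of them a miR-21 arm. On the recovered reads edgeR's quasi-likelihood test called 3 miRNAs (0.586%) and DESeq2 called 0 (0%), again without a miR-21 arm. The groups of libraries did not overlap in 33 miRNAs (6.45%), of which 19 (3.71%) were higher and 14 (2.73%) lower in HS-EVs, and they overlapped in both arms. Leaving out single libraries turned the sign of both arms, and scaling by all reads turned that of the 5p arm. Without HS-EVs replicate 1, the library that stood apart, limma's log2 fold change was 0.49 for the 5p arm (adjusted p = 0.809) and 0.22 for the 3p arm (adjusted p = 0.911). Without control-EVs replicate 1 it was -0.16 for the 5p arm, and without control-EVs replicate 3 it was 0.28 for the 3p arm. With reads scaled by all reads, its log2 fold change was -1.41 (adjusted p = 0.686 from limma) and that of the 3p arm was -1.52 (adjusted p = 0.671 from limma), where the median of the 512 miRNAs moved from 0.01 to -0.79.

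**Figure D2:**
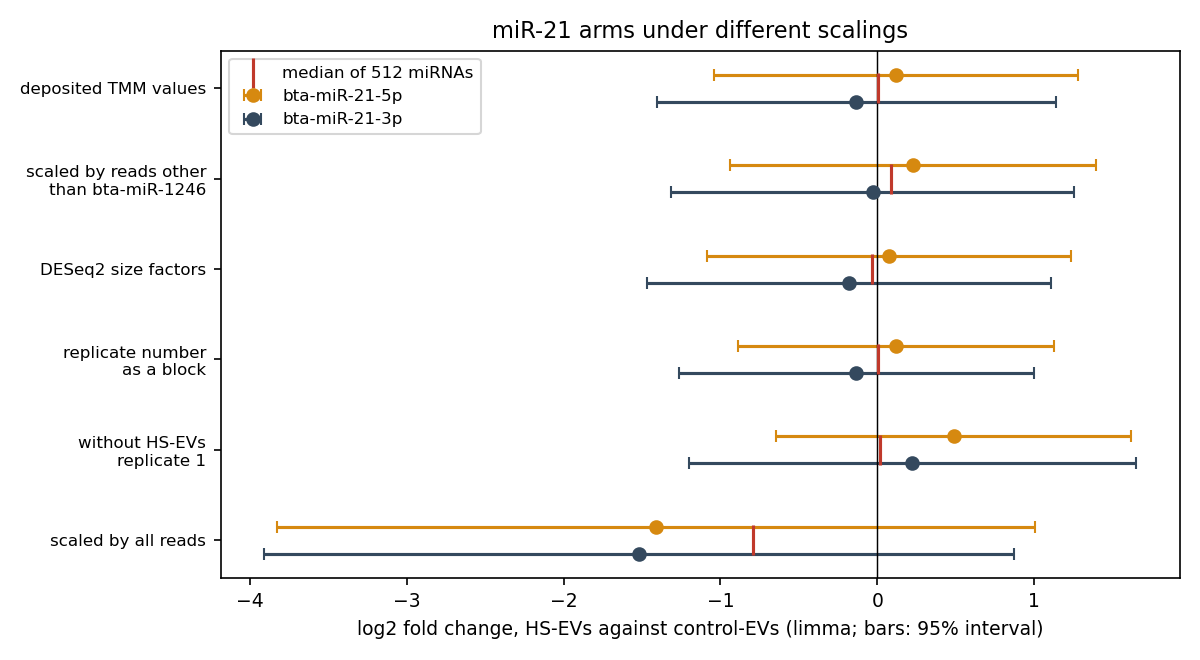
Log2 fold change of bta-miR-21-5p (orange) and bta-miR-21-3p (dark blue) in HS-EVs against control-EVs from limma, with 95% intervals, under 6 ways of scaling, modelling or choosing the libraries. Red ticks mark the median of the 512 miRNAs. All intervals span 0, and scaling by all reads moves both arms and the median to lower values.

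The ratio of the arms within a library does not depend on how the library was scaled. In control-EVs there were 255, 213 and 179 reads of bta-miR-21-5p for each read of bta-miR-21-3p in replicates 1 to 3, and in HS-EVs there were 255.5, 207 and 315. The highest and the second lowest ratio were both from HS-EVs. In terms of the share of the passenger among the reads of both arms, control-EVs had 0.390% (14 of 3590 reads, 95% Wilson interval 0.232% to 0.654%), 0.467% (63 of 13497, 0.365% to 0.597%) and 0.555% (41 of 7394, 0.409% to 0.751%). HS-EVs had 0.390% (6 of 1539, 0.179% to 0.848%), 0.481% (60 of 12475, 0.374% to 0.619%) and 0.317% (26 of 8212, 0.216% to 0.464%). Values from 0.409% to 0.464% lay inside all 6 intervals. Over the 6 libraries together, 210 of 46707 reads (0.450%) came from the passenger.

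With 0.5 reads added to each arm, the mean log2 ratio of guide to passenger was 7.71 ± 0.24 (SD, n = 3) for the controls, against 7.94 ± 0.30 (SD, n = 3) after heat stress. The difference of 0.23 was smaller than the SD of either group (two-sided exact permutation, p = 0.5). Without HS-EVs replicate 3 the difference of the means was 0.07, and without HS-EVs replicate 1 it was 0.26.

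Both arms were listed for 41 precursors, and 20 of these had 10 or more reads of each arm over the 6 libraries. Most bovine miRNAs of the files carry no arm in their name and could not enter this comparison. By the mean log2 ratio of 5p to 3p, bta-miR-21 was 2nd of the 20 precursors at 7.83 ± 0.27 (SD, n = 6), behind bta-let-7a at 11.2 ± 1.07 (SD, n = 6). The let-7a value rested on 20 reads of its 3p arm over all libraries, and let-7a is made from several gene copies. The 3 precursors nearest to miR-21 were bta-miR-423 at 5.39 ± 0.42 (SD, n = 6), bta-miR-99a at 4.62 ± 0.96 (SD, n = 6) and bta-miR-17 at 4.57 ± 0.90 (SD, n = 6), all with the 5p arm in excess. The values of miR-99a and miR-17 rested on 18 and 12 reads of their 3p arms over all libraries, against 883 for miR-423 and 210 for miR-21. At the other end stood bta-miR-199a, whose 3p arm dominated, at -6.18 ± 0.96 (SD, n = 6). The SD of the miR-21 ratio over the libraries was 0.27, against a median of 0.74 over the 20 precursors, many of which had fewer reads behind them. The absolute difference between the groups was larger than that of miR-21 in 12 of the other precursors.

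**Figure D3:**
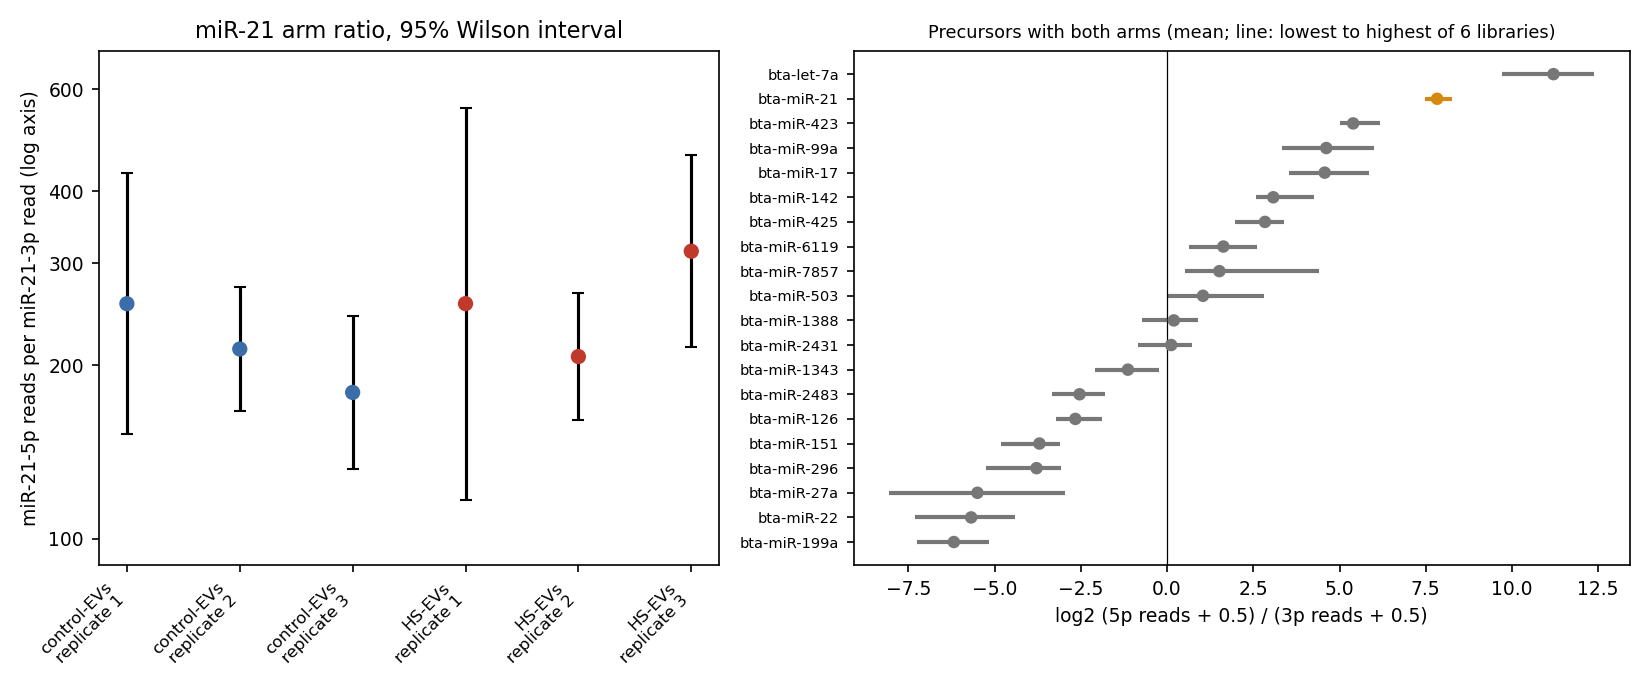
Left, reads of bta-miR-21-5p per read of bta-miR-21-3p in each library (log axis) with the range given by the 95% Wilson interval of the passenger share, control-EVs in blue and HS-EVs in red. Right, mean log2 ratio of 5p to 3p for the 20 precursors with enough reads of both arms, with lines from the lowest to the highest of the 6 libraries. All 6 miR-21 intervals overlap, and miR-21 (orange) is second from the top.

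Several miRNAs changed places with bta-miR-21-5p from library to library. In mean rank over the 6 libraries it was 5th at 5.33, after bta-miR-1246 at 1, bta-miR-122 at 3.17, bta-miR-155 at 4.17 and bta-let-7a-5p at 4.67, and before bta-miR-423-5p at 6.17. bta-miR-155, an miRNA best known from activated immune cells, had more reads than bta-miR-21-5p in 4 libraries and fewer in the other two. The difference in log2 reads was 0.11 ± 0.23 (SD, n = 6), less than its spread over the libraries. For bta-let-7a-5p, of the differentiation-linked let-7 family, the difference was -0.05 ± 0.70 (SD, n = 6), with more reads than the guide in 3 libraries. For bta-miR-423-5p it was -0.33 ± 1.07 (SD, n = 6), also with more reads in 3 libraries. None of these neighbours was separated from bta-miR-21-5p beyond the spread. By contrast, bta-miR-16b and bta-miR-92a had fewer reads than bta-miR-21-5p in all 6 libraries, with log2 differences of -0.95 ± 0.70 and -0.98 ± 0.61 (SD, n = 6).

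The miRNAs directly beside the guide differed between libraries. In control-EVs they were bta-let-7b above (4010 reads) and bta-miR-320a below (3573) in replicate 1, bta-let-7a-5p (13876) and bta-miR-16b (11796) in replicate 2, and bta-miR-122 (10805) and bta-miR-155 (6270) in replicate 3. In HS-EVs they were bta-let-7f (1630) and bta-miR-16b (1331) in replicate 1, bta-miR-1246 (383222) and bta-miR-155 (11409) in replicate 2, and bta-miR-155 (9492) and bta-let-7a-5p (6289) in replicate 3. HS-EVs replicate 2 was thus the library where bta-miR-21-5p exceeded every miRNA except bta-miR-1246.

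bta-miR-122, the main miRNA of liver and a frequent miRNA of serum, stood above the guide in all control-EVs libraries and in HS-EVs replicate 1. There were 0.537, 0.369 and 0.681 reads of bta-miR-21-5p for each read of bta-miR-122 in the control libraries, and 0.462, 1.39 and 1.77 in the HS libraries, in the order of their numbers. The groups overlapped because of HS-EVs replicate 1. The liver list (bta-miR-122, bta-miR-192 and bta-miR-194, 3 of 3 listed) made up 8.76% to 15.5% of the reads other than bta-miR-1246 in control-EVs and 5.38% to 9.78% in HS-EVs. Nearly all of this sum was bta-miR-122 itself, since bta-miR-192 took 0.0469% to 0.0664% and bta-miR-194 at most 0.0259%, and the groups overlapped in both of them. The gonad list (bta-miR-202, bta-miR-224 and bta-miR-383, 3 of 3 listed) made up 1.245% to 1.34% in control-EVs and 0.769% to 1.55% in HS-EVs, nearly all of it bta-miR-202. For each read of bta-miR-202 there were 3.93, 4.77 and 7.73 reads of bta-miR-21-5p in the control libraries, and 3.02, 9.27 and 13.1 in the HS libraries, so that the groups overlapped here as well. The red blood cell list (bta-miR-451, bta-miR-486 and bta-miR-144, 3 of 3 listed) made up 0.912% of control-EVs replicate 1 and 0.586% of HS-EVs replicate 1, the libraries lowest in bta-miR-21-5p, and 0.236% to 0.386% of the other 4. bta-miR-486 carried nearly all of this sum, with bta-miR-451 at 9 to 37 reads and bta-miR-144 at 2 to 9. The myeloid marker bta-miR-223 stayed between 8 and 58 reads, and the groups overlapped in its share. The lymphocyte marker bta-miR-150 had 11 to 41 reads. Its share of the reads other than bta-miR-1246 was 0.0110% to 0.0209% in control-EVs and 0.0235% to 0.0473% in HS-EVs, without overlap. In normalized read counts, 6.45% of the 512 miRNAs had groups that did not overlap. The part of these markers in the miR-21 values was not tested.

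**Figure D4:**
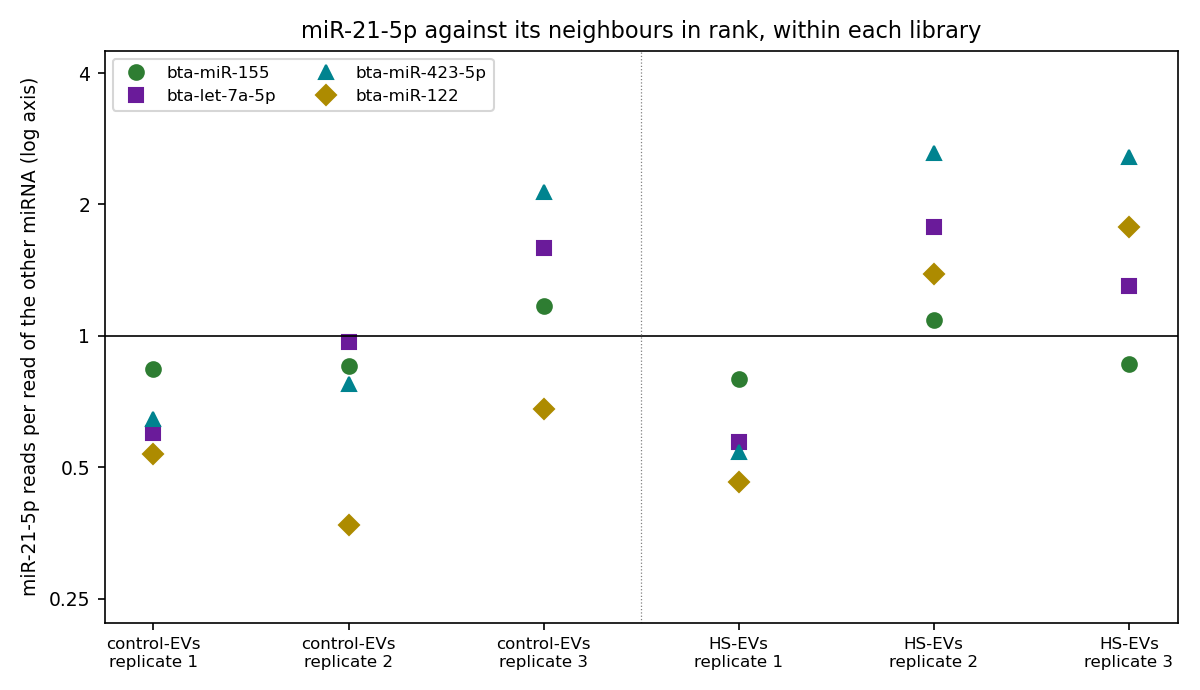
Reads of bta-miR-21-5p per read of bta-miR-155, bta-let-7a-5p, bta-miR-423-5p and bta-miR-122 within each library (log axis). The line marks equal reads. Values for bta-miR-155 stay between 0.796 and 1.17, while those for bta-miR-122 run from 0.369 to 1.77.

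The pattern most like that of bta-miR-21-5p was sought by the SD over the 6 libraries of the log2 ratio of reads to its reads, which does not depend on the scaling. The comparison took in the 129 other miRNAs with 10 or more reads in every library, all measured in the same 6 libraries. bta-miR-155 came closest, with an SD of 0.23 and 0.853 to 1.26 times the reads of the guide. It was followed by bta-miR-20a (SD 0.27), bta-miR-186 (0.28), bta-miR-1306 (0.29) and bta-miR-708 (0.32), where the median of the 129 was 0.71 and the highest, bta-miR-1246, was 2.26. These 4 were far less abundant than the guide, at 0.0593, 0.0224, 0.00625 and 0.00670 times its reads on average. bta-miR-21-3p could not enter the list, since HS-EVs replicate 1 had 6 of its reads. Its own ratio to the guide had an SD of 0.29. When the 3p arm was taken as the reference instead, bta-miR-21-5p had the lowest SD of the 130 miRNAs with 10 or more reads in every library.

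Other miRNAs known from studies of granulosa cell survival or of the response to luteinizing hormone were listed for comparison: bta-miR-132, bta-miR-212, bta-miR-23a, bta-miR-26b, bta-let-7g, bta-miR-145, bta-miR-34a, bta-miR-92a and bta-miR-125a. All 9 were in the files, and 0 of 9 passed the threshold in either direction (0% of the 512 miRNAs did). The groups overlapped in all 9, where 6.45% of the 512 miRNAs had groups that did not, a share at which 0 of 9 says nothing particular of the list. bta-miR-212 had 1 read in HS-EVs replicate 2 and was at 0 in the other libraries, too few for a fold change. In the other 8 the median log2 fold change was 0.06, beside 0.01 over the 512 miRNAs. A positive value was found in 5 of the 8 and in 50% of the 512, so this count says nothing particular of the list. On reads scaled by all reads the direction turned, with a median of -1.42 over all 9, beside -0.79 over the 512 miRNAs. The latter median includes many rare miRNAs, whose fold changes this scale understates, so it is no like comparison. The median over all 9, 0.10 in the deposited scaling, was 0.34 without control-EVs replicate 1 and 0.28 without control-EVs replicate 3.

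bta-miR-132, which luteinizing hormone induces together with miR-21 and miR-212, had 17, 65 and 38 reads in control-EVs and 10, 45 and 29 reads in HS-EVs, for replicates 1 to 3. Its reads were 0.00354 to 0.00652 times those of bta-miR-21-5p, and by the SD of that ratio, 0.33, it was 6th in likeness among the 129 miRNAs. Its normalized read count was 50.5 ± 22.4 (SD, n = 3) for the controls, against 46.0 ± 4.36 (SD, n = 3) after heat stress. limma gave a log2 fold change of -0.05 with a standard error of 0.48 and an adjusted p of 0.974. The largest positive log2 fold change of the list was that of bta-miR-26b, which has been linked to granulosa cell apoptosis. Its normalized read count was 506 ± 254 (SD, n = 3) for the controls, against 886 ± 228 (SD, n = 3) after heat stress, and limma gave a log2 fold change of 0.89 with a standard error of 0.50 and an adjusted p of 0.873. On reads scaled by all reads it was -0.64. The median of the 512 miRNAs, many of them rare, was -0.79 on that scale. The largest negative log2 fold change was that of bta-miR-145. Its normalized read count was 11.5 ± 4.86 for the controls against 5.66 ± 2.48 after heat stress (SD, n = 3 each), from 2 to 20 reads in a library. limma gave it a log2 fold change of -0.89 with a standard error of 0.52 and an adjusted p of 0.873. The guide of miR-21 had more reads than any of the 9 in each of the 6 libraries. bta-miR-92a came nearest, at 0.268 to 0.754 times its reads.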

How the data were processed

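Per the study's methods and the labels, adapters and UMIs (tags that mark each captured molecule) were handled with cutadapt 1.11, and reads with the same UMI were collapsed. Reads were mapped with Bowtie2 2.2.2 to the bovine genome (Ensembl release 72, UMD3.1) and then to miRBase release 22. The authors normalized by TMM in edgeR and deposited 1 normalized read count per miRNA and library, a signal that is never negative. Here, 100% of the values were whole multiples (within 0.001) of the smallest value of their library above 0, which was taken as 1 read. The recovered totals are above the miRNA-mapped reads that the study lists in every library. A recovered read may therefore not be 1 molecule, and counting intervals may be too narrow. Without bta-miR-1246 the recovered reads were below the listed totals, so shares and scalings that include it are less certain. In HS-EVs replicate 1 a read was worth 4.11 normalized counts, and elsewhere 0.697 to 1.98, so that the floor of 3 reads was 12.3 there and 2.09 to 5.93 elsewhere. All pairs of libraries differed beyond sampling noise (chi-square per degree of freedom of 34.3 or more).

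Groups and replicate numbers came from the labels. limma (3.58.1, R 4.3.3) was fitted to log2(value + 1) of all 512 miRNAs, without a filter or a block, with Benjamini-Hochberg adjustment. The quasi-likelihood test of edgeR 4.0.16 and DESeq2 1.42.0 served as alternatives on recovered reads. All 3 tools were tested on simulated data. Fold changes on this scale understate those of rare miRNAs. Shares, ranks and ratios were compared between the groups with the exact two-sided permutation test of scipy 1.17.1. The miRNAs named are both arms, the 9 of the survival list, the 5 most alike by the SD of the log2 ratio, those directly beside the guide in each library, and the precursors nearest to and at the ends of the arm ratio. Markers and neighbours in the mean rank were named beside them. A further part of the rule, miRNAs sharing a seed, was not applied, as sequences were not used here. The members, lists and tests were chosen with earlier results of these data known. Other scalings, pseudocounts, filters, tests, the replicate block and leaving out each library were tried as alternatives.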

Additional observations from a re-analysis of the deposited data

How the results depend on the processing

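The miR-21 differences stayed on the same side of the threshold in every alternative run, and their signs did not. For bta-miR-21-5p the log2 fold change was -1.41 on reads scaled by all reads and lay between 0.04 and 0.23 in the other 9 alternatives that kept all libraries, while leaving out each library in turn gave -0.16 (without control-EVs replicate 1) to 0.49 (without HS-EVs replicate 1). For bta-miR-21-3p these fits gave -1.52 to -0.03, and -0.53 to 0.28 with each library left out. The adjusted p-values of the arms in limma and the other tests lay between 0.671 and 1. Scaling by all reads, which took the median of the 512 miRNAs from 0.01 to -0.79, also took the guide's share to a difference of -0.57 percentage points, the survival list's median from 0.10 (all 9 members) to -1.42, and bta-miR-26b to -0.64, bta-miR-132 to -1.49 and bta-miR-145 to -2.09. The median of the 512 miRNAs includes many rare ones, whose fold changes this scale understates. With each library left out the list's median lay between 0.09 and 0.34, the highest without control-EVs replicate 1. On reads other than bta-miR-1246, bta-miR-132 moved to 0.056, and with each library left out it lay between -0.34 and 0.28. The number of miRNAs past the threshold, 0, became 1 with a pseudocount of 0.5, 3 with edgeR's quasi-likelihood test, 2 with limma's trend, and 0 to 4 with each library left out (4 without control-EVs replicate 2, 2 without HS-EVs replicate 1 and 3 without HS-EVs replicate 2). The difference in arm ratio stayed between 0.07 and 0.36, that in the guide's share between 0.148 and 2.96 percentage points and that in its rank between -3.5 and 0 with each library left out. The cause of these shifts was not tested. bta-miR-145 had no value under the filter on low reads, which left 177 miRNAs.

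The labels number the replicates 1 to 3 in both groups and do not say that a number marks a shared culture. After subtraction of the group means, libraries with the same number had correlations of 0.14, 0.14 and 0.08 over the 512 miRNAs. In this comparison 6 of 6 libraries correlated best with their own number, which is a hint from the data and not part of the design. These 6 matches came from the same correlations and are not independent, and the count expected by chance was not computed. With the replicate block, limma's log2 fold change of bta-miR-21-5p kept its value of 0.12 with a standard error of 0.42 (adjusted p = 0.925), and 0 miRNAs passed. The exact sign-flip test within same-numbered pairs gave p = 1 for the arm ratio, the guide's share and its rank, where the smallest p that 3 pairs allow is 0.25. Between the arms, depth limits the 3p arm more, with 6 to 63 reads in a library.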
